A study of Rattus norvegicus with 4 samples.

Results

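The genes described here are 10 surface and matrix genes that mark the precursor stage of the oligodendrocyte lineage: Pdgfra, Cspg4, Cspg5, Ptprz1, Lhfpl3, Pcdh15, Vcan, Tnr, Bcan and Ncan. They were taken by name, as a list of genes known from oligodendrocyte precursor cells (OPCs), and the rule that picks them uses no measured value. The list was nevertheless proposed with earlier results of these data known. Of the 10 genes, 9 had a probe on the array that could be matched to their symbol, and all 9 entered the test, among 11656 genes tested in all. Lhfpl3 was not matched to a probe, so its expression is not described here, and it enters only the counts of start site windows. The cells were rat OPCs isolated from cerebral cortices at postnatal day 2, pooled across Sprague-Dawley pups and kept for 3 days with bFGF and PDGF so that they proliferated. When they were switched to differentiating medium, which holds the thyroid hormone T3, they received 50 nM of a pool of siRNAs against the rat Gpr17 transcript (siGPR17) or of a non-targeting RNA pool (siNEG), and they were lysed 48 h later, at day in differentiation 2. GPR17 is a G protein-coupled receptor of late precursors and of cells about to become oligodendrocytes. Each group had 2 samples, and each sample was measured on its own one-color array. By the methods, both groups had the same kind of cell source, growth factors, transfection reagent and medium. Whether both came from the same pool of cells is not stated. Silencing with siRNA lowers a transcript without removing it. Nothing in the labels says that the samples of a group came from separate cultures, so the p-values given here measure the spread between these samples, which may be technical.

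OPCs divide and migrate through the developing brain and stay as precursors as long as mitogens such as PDGF act on them, and they turn off much of their surface equipment as they become oligodendrocytes. That equipment includes a growth factor receptor, PDGFRA, and a dense coat of chondroitin sulfate proteoglycans, which are proteins that carry long sulfated sugar chains. Some of these are anchored in the membrane (NG2, neuroglycan C, RPTP-zeta), whereas the lecticans versican, brevican and neurocan are secreted, bind hyaluronan at one end and tenascins at the other, and so build the matrix around the cell. Neurons and astrocytes also express several of these genes, and pericytes express NG2.

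RefSeq start site windows on the assembly GRCr8 were at hand for 8 of the 10 genes, all but Cspg5 and Ptprz1. The 250 bases before the start site are shown for Cspg4 and Vcan, which had the largest differences of the 9 genes, and for Pdgfra, the receptor that defines the stage. Capitals mark a GC box (GGGCGG or, on the other strand, CCGCCC), and each sequence runs 5′ to 3′ along the strand of its gene.
Cspg4, chr8:66160692-66160941, plus strand: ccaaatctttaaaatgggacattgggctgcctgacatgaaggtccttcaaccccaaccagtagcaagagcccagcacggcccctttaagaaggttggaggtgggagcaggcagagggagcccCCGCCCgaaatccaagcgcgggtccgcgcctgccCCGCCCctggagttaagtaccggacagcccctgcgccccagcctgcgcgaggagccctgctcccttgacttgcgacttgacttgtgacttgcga
Vcan, chr2:22595956-22596205, minus strand: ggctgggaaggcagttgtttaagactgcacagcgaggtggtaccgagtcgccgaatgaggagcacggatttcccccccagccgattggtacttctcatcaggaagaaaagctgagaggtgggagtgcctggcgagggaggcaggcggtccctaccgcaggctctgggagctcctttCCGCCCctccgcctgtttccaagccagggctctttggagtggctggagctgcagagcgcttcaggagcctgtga
Pdgfra, chr14:33408517-33408766, minus strand: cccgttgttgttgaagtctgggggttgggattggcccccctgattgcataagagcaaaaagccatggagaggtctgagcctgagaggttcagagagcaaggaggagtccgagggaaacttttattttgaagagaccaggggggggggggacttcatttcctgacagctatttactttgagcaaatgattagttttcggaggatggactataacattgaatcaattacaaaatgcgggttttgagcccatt
The Cspg4 window held 2 GC boxes, at -128 and -94 from the start site, and the Vcan window held 1 at -74, whereas the Pdgfra window held 0. The GC content was 62% in Cspg4 and 61.6% in Vcan, against 47.2% in Pdgfra. Of the 8 genes, 5 had a GC box on either strand, where the 2 overlapping windows of Vcan hold the same one, against 30.5% of 33469 windows of the same length. An E-box (CANNTG) was found for 6 of the 8 genes, against 65.5% of all windows. Lhfpl3, which has no measured signal, is counted among the genes with a GC box and among those with an E-box. The letters ACAAT, the core that SOX factors bind, were found for 2 genes and TATAAA for 1, against 30% and 12.9% of all windows. These matches describe the letters of the windows, and no binding was measured.

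The targeted transcript was checked first. Gpr17 had normalized signals of 1107 and 1113 intensity units in the siNEG samples and 652.3 and 639.4 in the siGPR17 samples, which is 58.2% of the control level (log2 fold change -0.78 ± 0.084 SE, limma adjusted p = 0.209). Each array had between 26997 and 28244 probes clear of its background, and any pair of arrays correlated across probes with r of 0.992 or more (probes are not independent replicates). All 4 arrays lay on 1 slide and were scanned once. Both siNEG arrays lay in slide column 4 and both siGPR17 arrays in column 3, so that column and treatment cannot be told apart. Over all 28016 tested probes, 1 (0.00357%) passed the thresholds of the study, a change of at least 1.5-fold with an adjusted p under 0.07. This probe, A_44_P1150816, was higher in the siGPR17 samples and has no symbol here. Over genes with a symbol, through the brightest tested probe of each, the share was 0%, while 4677 probes had an unadjusted p under 0.05.

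All 9 measured precursor genes had lower signals in the siGPR17 than in the siNEG samples, but 0 passed the thresholds. Their log2 fold changes ran from -0.15 for Ptprz1 to -0.48 for Cspg4, with a median of -0.33, beside a median of 0.01 over all tested genes. None of the 9 reached a 1.5-fold difference, and their adjusted p-values ran from 0.211 to 0.505. At an unadjusted p under 0.05, 6 of the 9 were lower (Cspg4, Vcan, Ncan, Cspg5, Tnr and Pcdh15) and 0 were higher, against 8.73% of all tested genes lower and 7.43% higher. In all 9, both siGPR17 samples lay below both siNEG samples, which was so for 25.3% of all tested genes. By direction alone, 48% of all tested genes were lower in the siGPR17 samples. Because the list was proposed with earlier results of these data known, these shares are descriptions, and no set test was run. All 14 tested probes of the 9 genes were well above background on all 4 arrays. Of the 15 probes matched to these genes, the filter on dim probes left out only a Pcdh15 probe, described below. With 2 samples against 2, an exact permutation test of a single gene cannot give a two-sided p below 0.333. In bulk RNA, fewer cells at the precursor stage and less of the transcript per cell cannot be told apart.

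**Figure D1:**
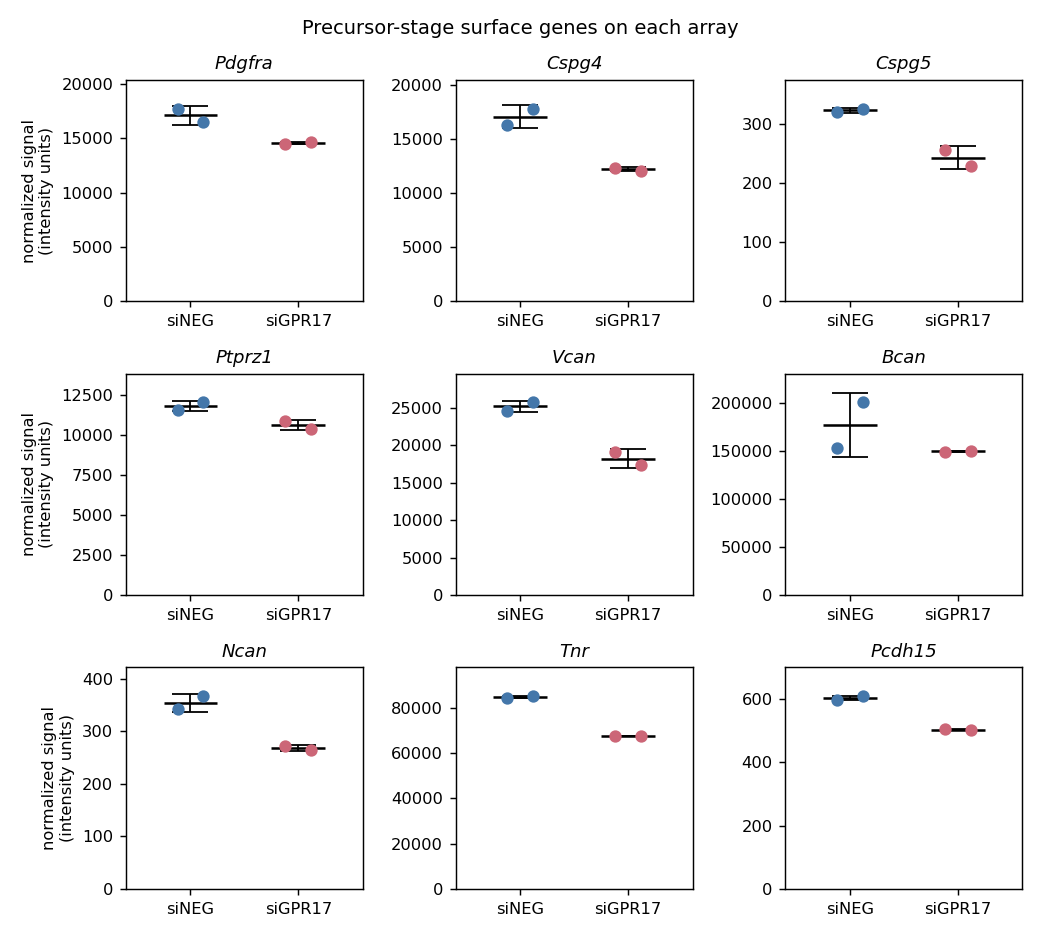
Normalized signal, in intensity units on a linear axis from 0, of the 9 measured precursor genes in each siNEG and siGPR17 sample (points), with the group mean (long line) and ± 1 SD (error bar, n = 2). In every panel both siGPR17 points lie below both siNEG points, and the gap is narrow against the spread of the controls for Bcan.

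Among the receptors and anchored proteins of the surface, Cspg4 differed most. Cspg4 encodes NG2, the transmembrane proteoglycan by which OPCs are commonly recognized. Its signals were 16311 and 17821 units in siNEG and 12342 and 12092 in siGPR17. The groups were separated by more than the gap within either of them, and the level in siGPR17 was 28.3% lower (log2 fold change -0.48 ± 0.095 SE, 95% interval -0.74 to -0.22, limma unadjusted p = 0.00661, adjusted p = 0.211). Pdgfra, the receptor for PDGF-A through which OPCs are kept dividing, had signals of 17719 and 16502 units in siNEG and 14496 and 14646 in siGPR17. The siGPR17 samples lay below the controls by 14.8%, and the 95% interval of the log2 fold change, -0.48 to 0.02, includes no difference (adjusted p = 0.319 in limma).

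Cspg5 encodes neuroglycan C, a membrane proteoglycan with an EGF-like domain that is shared with neurons. Its signals were 320.7 and 326.2 units in siNEG and 256.7 and 229.3 in siGPR17. Both siGPR17 samples lay below both controls (log2 fold change -0.41 ± 0.10 SE, 95% interval -0.69 to -0.14, limma adjusted p = 0.227). Ptprz1 encodes RPTP-zeta, a receptor tyrosine phosphatase that carries chondroitin sulfate and whose secreted form is known as phosphacan. It gave 11611 and 12055 units in siNEG and 10864 and 10406 in siGPR17, the smallest difference of the 9 genes, at -0.15 ± 0.089 SE on the log2 scale (95% interval -0.40 to 0.09). A second Ptprz1 probe, listed for another transcript accession, gave 9164 and 8231 units in siNEG and 7463 and 7034 in siGPR17, which is a log2 fold change of -0.26 ± 0.10 SE. Neither Ptprz1 interval excludes 0.

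The lecticans of the secreted matrix differed to unequal degrees. Versican, encoded by Vcan, is the large lectican made by OPCs among other cells. Its signals were 24619 and 25696 units in siNEG and 19069 and 17334 in siGPR17. The groups stood well apart, and the mean in siGPR17 was 18202 ± 1227 (SD, n = 2) against 25158 ± 762 (SD, n = 2), a log2 fold change of -0.47 ± 0.099 SE (95% interval -0.74 to -0.20, unadjusted p = 0.00829 and adjusted p = 0.214 in limma). Ncan, which encodes neurocan, a lectican of developing brain made mainly by neurons and astrocytes, had signals of 342.3 and 366.5 units in siNEG and 272.0 and 263.5 in siGPR17 at its brighter probe. Here the siGPR17 level was 24.4% lower (log2 fold change -0.40 ± 0.092 SE, limma adjusted p = 0.217). The other Ncan probe, listed for the same transcript, did not show this difference, with 116.8 and 97.9 units in siNEG and 108.7 and 122.5 in siGPR17. Its log2 fold change was 0.11 ± 0.14 SE, the groups overlapped, and it was the only one of the 14 tested probes with a positive value. The value of Ncan therefore rests on 1 of its 2 probes, and the mean of both gives -0.15.

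Bcan encodes brevican, the lectican of the mature brain matrix that OPCs and astrocytes make. Its signals were 153530 and 200754 units in siNEG and 149348 and 150118 in siGPR17. The siNEG samples differed from each other by 0.39 on the log2 scale, which is more than the difference between the groups of -0.23 ± 0.16 SE (95% interval -0.66 to 0.20, limma adjusted p = 0.505). A second Bcan probe gave the same picture, with 1076 and 1424 units in siNEG, 1053 and 1031 in siGPR17 and a log2 fold change of -0.25 ± 0.16 SE. Without siNEG replicate 2, the Bcan value was -0.04, and without siNEG replicate 1 it was -0.42.

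Tnr encodes tenascin-R, a matrix glycoprotein of the oligodendrocyte lineage and some neurons that links lecticans to each other. It had the tightest replicates of the 9 genes in siGPR17, at 67409 and 67362 units, with 84397 and 84988 in siNEG. The siGPR17 level was 20.4% lower (log2 fold change -0.33 ± 0.084 SE, 95% interval -0.56 to -0.10, limma unadjusted p = 0.0160, adjusted p = 0.234). Pcdh15 encodes a cadherin that forms the tip links of hair cells in the inner ear and is also expressed by OPCs. The brightest Pcdh15 probe gave 597.5 and 607.8 units in siNEG and 503.3 and 500.9 in siGPR17, a log2 fold change of -0.26 ± 0.084 SE (unadjusted p = 0.0338 and adjusted p = 0.271 in limma). A second probe of the same transcript gave -0.20 ± 0.089 SE with groups apart, and one more gave -0.08 ± 0.12 SE with groups that overlapped. The remaining Pcdh15 probe, A_44_P429160, was not well above background in either group and was not tested.

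**Figure D2:**
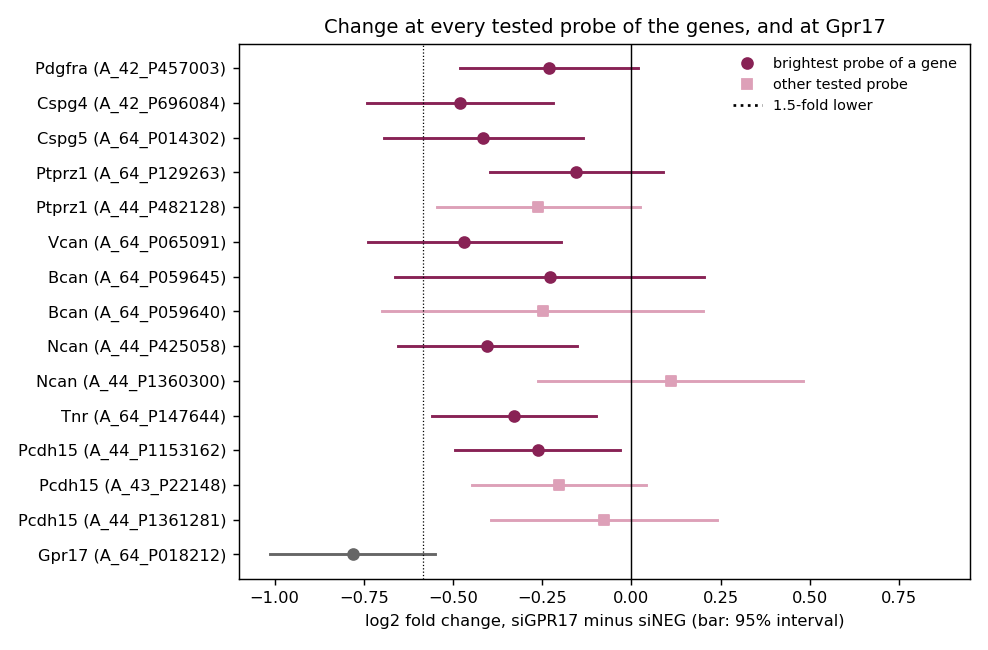
Log2 fold change (siGPR17 minus siNEG, horizontal axis) with its 95% interval from limma, for each of the 14 tested probes of the 9 genes and for the targeted Gpr17. Dark circles are the brightest probe of a gene, pale squares its other probes, the gray circle is Gpr17 and the dotted line is a 1.5-fold lower level. Of the 14 probes, 13 lie below 0, and the second Ncan probe lies at 0.11.

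Compared within slide rows, which hold the samples of equal replicate number, all 9 genes were lower in siGPR17 in both rows. This direction follows from groups that do not overlap and adds nothing to it, so only the sizes are of use. In the first row the log2 difference ran from -0.04 for Bcan to -0.40 for Cspg4, and in the second from -0.17 for Pdgfra to -0.57 for Vcan. The count of 6 genes at an unadjusted p under 0.05 depended on the samples used, at 7 without siNEG replicate 1, 6 without siNEG replicate 2, 3 without siGPR17 replicate 1 and 0 without siGPR17 replicate 2, where the lone sample is assumed to vary like the others. Over all 28016 tested probes and both directions, the count at this p was 6831, 5069, 2038 and 2177 under these settings, against 4677 with all samples. Scaled on the spike-in controls, which moves the median of all tested probes up by 0.13 on the log2 scale, the 9 genes stayed below 0 with a median of -0.20, Ptprz1 came to -0.02, and 3 of the 9 had an unadjusted p under 0.05, as did 4809 of the 28016 probes.

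**Figure D3:**
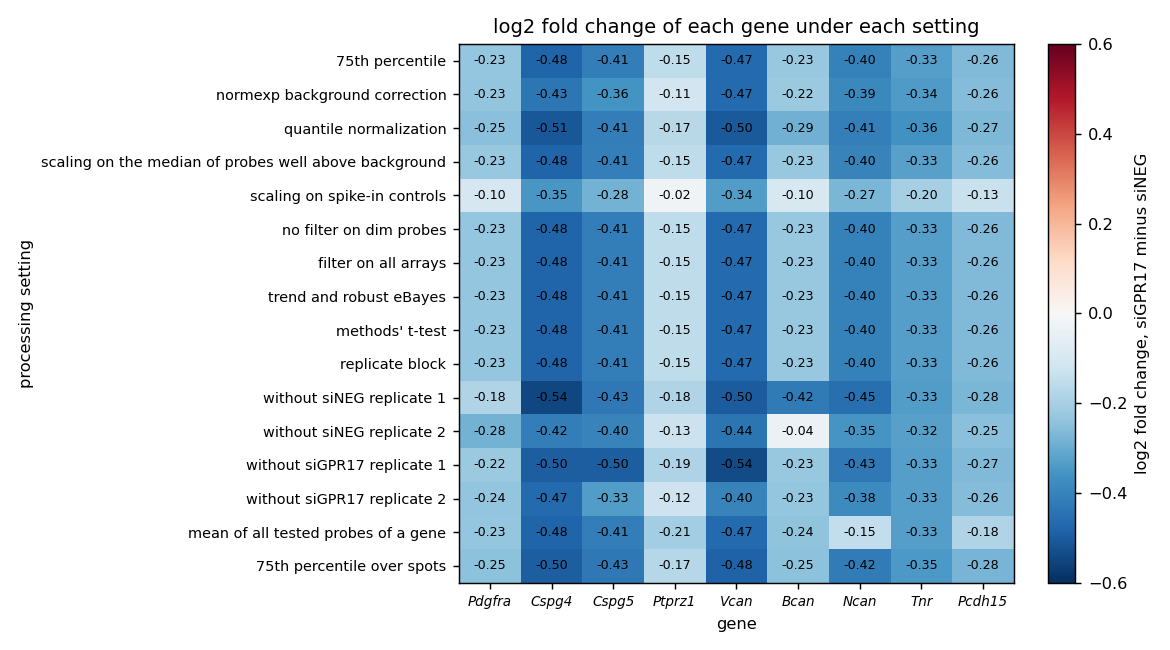
Log2 fold change (siGPR17 minus siNEG, color scale and printed values) of the 9 genes (columns) under each processing setting (rows), the first of which, the 75th percentile, is the one used in the text. All 9 genes are below 0 under every setting drawn, and the values closest to 0 are those of Ptprz1 with spike-in scaling (-0.02) and Bcan without siNEG replicate 2 (-0.04). Settings that change only the filter or the test repeat the values of the first row. With an array left out the sign could not change, since the groups do not overlap.

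The genes that work with the lecticans were then read from the same fit. Of 12 genes for hyaluronan synthases, link proteins and other lectican partners, 9 were tested, 7 were lower and 2 higher, and 5 were lower and 1 higher at an unadjusted p under 0.05, with a median log2 fold change of -0.28. The lowest value was that of Has2, a hyaluronan synthase, at 569.0 ± 26.0 units in siNEG and 402.9 ± 45.9 in siGPR17 (SD, n = 2; log2 fold change -0.50 ± 0.12 SE, limma adjusted p = 0.225), while its paralog Has1 was the highest at 0.39 ± 0.14 SE, from a signal of 62.7 ± 9.54 units in siNEG (SD, n = 2). Tnc, which encodes tenascin-C, the relative of tenascin-R, was named after its values were seen, with 259.4 and 264.4 units in siNEG and 185.1 and 188.4 in siGPR17 (log2 fold change -0.49 ± 0.085 SE). The link protein genes Hapln1 and Hapln4 were not well above background in either group. Of 8 genes for proteases that cut lecticans and their inhibitor, 5 were tested, 4 lower and 1 higher, with Adamts9 at -0.39 ± 0.14 SE and Adamts1 at 0.28 ± 0.089 SE. The enzymes that build the chondroitin sulfate chains were divided evenly, with 9 of 18 tested genes lower, 9 higher and a median of -0.01. Their extremes were Chst3, a sulfotransferase, at -0.35 ± 0.13 SE and B3galt6, a linker galactosyltransferase, at 0.31 ± 0.10 SE.

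The PDGF pathway around Pdgfra did not lean to one side. Of 12 tested genes for PDGF ligands, adaptors, effectors and feedback inhibitors, 6 were lower and 6 higher, 1 and 2 of them at an unadjusted p under 0.05, with a median of -0.03. Pik3ca, the catalytic subunit of a PI3 kinase, was lowest at -0.33 ± 0.098 SE, although 1 of its other 2 probes had groups that overlapped, and Spred1, an inhibitor of RAS-ERK signaling, was highest at 0.33 ± 0.099 SE. Pdgfb, Pdgfd and Pdgfrb were not well above background in either group. Of the 5 tested partners of NG2, 3 were lower and 2 higher, all at an unadjusted p under 0.05, with the scaffold gene Mpdz at -0.42 ± 0.11 SE and Lgals3, which encodes galectin-3, at 0.67 ± 0.10 SE. Among ligands and binding partners of RPTP-zeta and tenascin-R, 3 of 6 tested genes were lower and 3 higher, from Ncam1 at -0.28 ± 0.11 SE to L1cam at 0.09 ± 0.20 SE. Of 3 tested receptors for chondroitin sulfate proteoglycans, Rtn4r, the Nogo receptor, stood highest at 0.82 ± 0.19 SE from a signal of 39.7 ± 8.22 units in siNEG (SD, n = 2), and Ptprs, a receptor phosphatase, was lowest at -0.14 ± 0.11 SE. In the tip link and LHFPL group, 4 of 6 tested genes were lower and 2 higher, with Lhfpl4 at -0.38 ± 0.17 SE and Cib2, a calcium-binding protein of the hair cell complex, at 0.60 ± 0.10 SE. None of the genes in these lists passed the thresholds.

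Other genes enriched in OPCs, which are no members of the 10, were also mostly lower in siGPR17. Of 9 tested, 8 were lower and 1 was higher, 4 were lower at an unadjusted p under 0.05, and the median was -0.25. Nkain4, a membrane protein that interacts with the sodium pump, was lowest at 2756 ± 441 units in siNEG and 1770 ± 143 in siGPR17 (SD, n = 2; log2 fold change -0.63 ± 0.15 SE, limma adjusted p = 0.225). Genes of newly formed oligodendrocytes had small positive values, with 4 of 4 tested genes higher, 0 at an unadjusted p under 0.05 and a median of 0.07. Genes of mature oligodendrocytes were mixed, 5 lower and 4 higher of 9 tested, with 2 lower and 2 higher at an unadjusted p under 0.05. Their values ran from -0.67 to 0.40, with a median of -0.16. The lowest value was that of Mog, at -0.67 ± 0.12 SE, although its other probe gave -0.27 with groups that overlapped. Among the higher genes, Mbp, which encodes myelin basic protein, was at 0.32 ± 0.11 SE. All 7 tested genes of dividing cells were lower at their brightest probe, 2 of them at an unadjusted p under 0.05, with a median of -0.19 and summed signals of 28159 to 30490 units in siNEG and 25908 to 27786 in siGPR17. One of them, Mki67, was at -0.19 at this probe, while its other probes ran from -0.08 to 0.02 with groups that overlapped.

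**Figure D4:**
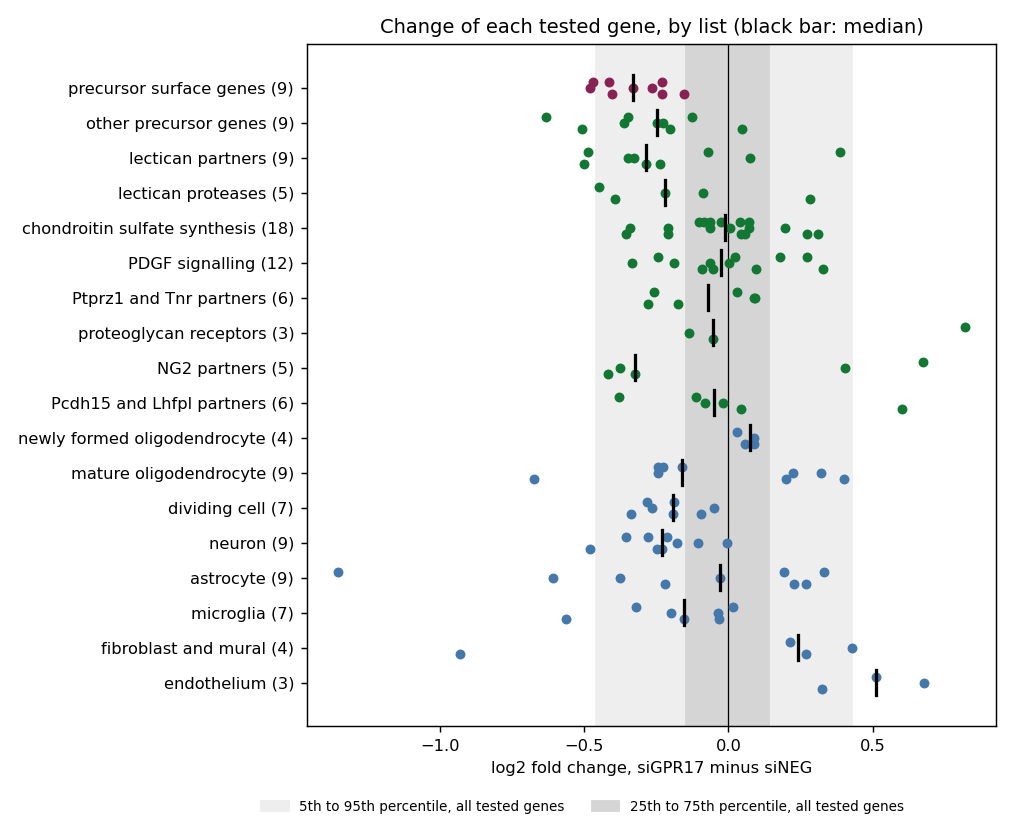
Log2 fold change (siGPR17 minus siNEG, horizontal axis) of each tested gene of the precursor surface genes, of the lists related to them and of the cell type marker lists (vertical axis, number of tested genes in parentheses), with black bars at the medians. Gray bands hold all tested genes between the 5th and 95th and between the 25th and 75th percentiles. The 9 surface genes lie between -0.48 and -0.15, all left of 0, as do the 9 neuron and 7 dividing cell markers.

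Markers of other cells that such a culture could hold were measured beside these genes, since Bcan, Ncan, Ptprz1, Cspg5 and Tnr are also expressed by astrocytes or neurons. Of the markers named, Aldoc, Slc1a3, P2ry12, Cx3cr1, Tagln, Acta2, Col1a2, Map2, Syt1, Kdr, Tek, Mog and Mki67 were chosen after their values were seen. All 9 tested neuron markers were lower in siGPR17, 4 at an unadjusted p under 0.05. Their log2 fold changes ran from -0.48 to -0.01, with a median of -0.23. In 7 of the 9, both siGPR17 samples lay below both controls. The summed signal of these markers was 7365 to 8709 units in siNEG and 6861 to 7124 in siGPR17, and it came mostly from Map2 and Tubb3. Their defining member Tubb3, a neuronal tubulin, was at -0.21 ± 0.14 SE with groups that overlapped. The count rests on the brightest probe of each gene. Syt1 was at -0.01 ± 0.095 SE there, but its other probe gave 0.26, with both siGPR17 samples above both controls. Of the 9 tested astrocyte markers, 5 were lower and 4 higher, with a median of -0.03, and 3 were lower (Aqp4, Gfap and Slc1a3) and 0 higher at an unadjusted p under 0.05. Their summed signal was 116708 to 131300 units in siNEG and 119185 to 120425 in siGPR17, but it came almost wholly from the probe of Aldoc, at 107483 and 121582 units in siNEG and 111314 and 112583 in siGPR17, and so says little of the other genes. Aqp4, which encodes the water channel of astrocyte end-feet, had 160.9 and 168.8 units in siNEG and 72.9 and 57.1 in siGPR17 (log2 fold change -1.35 ± 0.15 SE, limma adjusted p = 0.209), and Gfap, the astrocyte filament gene, had 295.4 and 261.4 units against 167.7 and 198.1 (log2 fold change -0.61 ± 0.13 SE). Of 7 tested microglia markers, 6 were lower and 1 higher, 2 lower (Aif1 and P2ry12) and 0 higher at an unadjusted p under 0.05. The defining gene Aif1 had 46.1 and 43.5 units in siNEG and 33.0 and 27.8 in siGPR17, with groups apart (log2 fold change -0.56 ± 0.12 SE). The summed signals of the list, to which Cx3cr1 gave the largest part, were 2547 to 3785 units in siNEG and 2545 to 3012 in siGPR17. Csf1r and Ptprc were not well above background in either group. Mural cells also express NG2, but their markers Pdgfrb and Rgs5 were not well above background in either group, nor were Dcn and Lum. Tagln, a smooth muscle and mural gene, was lower, with 67.4 and 76.0 units in siNEG and 32.5 and 43.4 in siGPR17 (log2 fold change -0.93 ± 0.18 SE, limma unadjusted p = 0.00579, adjusted p = 0.210). Of the 4 tested fibroblast and mural genes it was the 1 lower gene, and the other 3 were higher with 0 at an unadjusted p under 0.05. Among these 3 was Acta2, also a smooth muscle and mural gene, at 0.27 ± 0.12 SE with groups apart. Acta2 had 53.7 and 45.2 units in siNEG and 60.7 and 58.2 in siGPR17. Col1a1 had 34.6 and 20.8 units in siNEG and 46.7 and 27.8 in siGPR17. The summed signal of the 4 genes, mostly that of Col1a2, was 410.2 to 507.2 units in siNEG and 487.2 to 493.8 in siGPR17. Of the endothelial genes, Pecam1 and Cldn5 were not well above background in either group. The 3 tested genes were higher in siGPR17, 2 of them (Kdr and Tek) at an unadjusted p under 0.05, with a median log2 fold change of 0.51. Summed signals of the 3 genes were 305.5 to 336.3 units in siNEG and 478.7 to 487.1 in siGPR17. The part of neurons, astrocytes, dividing cells and the other cell types in the lower signals of the precursor genes was not tested.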

How the data were processed

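RNA of 4 rat OPC samples, 2 siNEG and 2 siGPR17 by the sample labels, was measured on one-color Agilent SurePrint G3 arrays. The authors deposited 1 file per array with the intensity of every spot from Feature Extraction 10.7.3.1, as named in the submitters' processing notes: processed intensities, corrected for background, and spot and background medians before correction, with no normalization between arrays. An array has no read depth, and the number of arrays limits the precision.

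Here, log2 processed intensities were taken relative to the 75th percentile of each array over non-control probes, which lay between 564.9 and 624.1 intensity units. Spots with an outlier flag were left out and spots of a probe averaged. Linear signals are these values times 1 factor common to all arrays. Levels of different probes were compared only to take the brightest probe of a gene and within summed signals of marker lists. Of 45598 non-control probes, 45565 had a value on all arrays, and 28016 of them, those well above background on 2 or more of the 4 arrays, were tested with limma 3.58.1 in R 4.3.3, with a term for treatment, Benjamini-Hochberg adjustment over all of them and the thresholds of the study (1.5-fold, adjusted p under 0.07). The brightest tested probe stands for a gene. Symbols came from matching transcript accessions without versions to RefSeq (GRCr8): 21109 probes had one, from 19258 of 20504 curated and 1317 of 7704 predicted mRNA accessions, 424 of 7249 predicted and 110 of 117 curated non-coding accessions, and 0 of 6958 Ensembl and 0 of 3066 other accessions. Array probes were given no coordinates, and cross-hybridization was not assessed. The code was tested on simulated data.

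The 10 genes, the 9 lists of related genes and the 8 lists of cell type markers were chosen with earlier results of these data known. Named in the text are all probes of the 10 genes, Gpr17, the largest rise and fall of each related list among genes above background on all arrays, and defining markers. The results of 2 genes that this rule names are not reported here. Two-sided tests were used throughout. The methods of the study give thresholds for the arrays but name no test for them. The methods' t-test, an alternative here, is their general unpaired test between 2 groups. Alternatives were background correction by normexp (offset 50) on the spot medians (mean spot intensities were not used here), quantile normalization, scaling on the median or on spike-in controls, no filter or a filter on all arrays, the trend and robust options of eBayes, a replicate block, the methods' t-test, each array left out, the mean of all probes of a gene, and, added after the data were seen, the percentile over all spots. The metabolomic, lipidomic and PCR measurements of the study were not analysed here.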

Additional observations from a re-analysis of the deposited data

How the results depend on the processing

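The log2 fold change was below 0 for all 9 precursor genes under all 15 alternatives, and 0 of the 9 passed the thresholds under any of them. Many of these alternatives could not change the sign. The filters, the eBayes options, the t-test and the replicate block leave each log2 fold change as it is. Leaving out an array cannot reverse groups that do not overlap. Cspg4 and Vcan had adjusted p-values of 0.0615 and 0.0572 with normexp and of 0.0419 and 0.0472 with trend and robust options, each with a change under 1.5-fold. Their adjusted p-values ran up to 0.683 and 0.716 over the alternatives. The median of the 9 genes, -0.33, was -0.36 with quantile normalization, -0.20 with spike-in scaling, -0.24 with the mean of all probes of a gene, and from -0.42 to -0.32 with each array left out. With the mean of all probes, Ncan was -0.15 and Pcdh15 -0.18.

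Over all tested probes, the 1 that passed the thresholds became 242 with normexp (95 lower and 147 higher) and 420 with trend and robust options (222 lower and 198 higher). It became 0 with spike-in scaling, with no filter, with the filter on all arrays, with the methods' t-test (3644 at an unadjusted p under 0.05), with the percentile over spots and with each array left out. The cause was not tested. The replicate block also gave 0 probes (3349 at an unadjusted p under 0.05) and 0 of the 9 genes past the thresholds, with 4 of the 9 at an unadjusted p under 0.05 and the median at -0.33. Replicate numbers coincide with slide rows, and the replicate differences of the 2 groups correlated with r = -0.065 across probes, so the numbers were not shown to pair the samples. Dim probes limit what can be said of Hapln1, Hapln4, Pdgfb, Pdgfd and one Pcdh15 probe.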
